A study of Mus musculus with 8 samples.

Results

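Matrix metalloproteinases (MMPs) and the tissue inhibitors of metalloproteinases (TIMPs) were followed through mouse bone marrow adipocyte cultures by 10 genes chosen by name: Mmp2, Mmp3, Mmp10, Mmp12, Mmp13, Mmp14, Mmp19, Timp1, Timp2 and Timp3. These are 7 proteases and 3 inhibitors out of 54134 genes in the deposited table. All 10 passed the filter on low values (at least 1 TPM in at least 2 libraries) among 14985 genes tested, although Mmp10 did so only through the libraries labelled GC. The cells, labelled as the wild-type BMAd line, came from marrow stem cells that had undergone 14 days of adipogenic differentiation, and all 3 groups share that step. Control received no further agent named in the labels (n = 2 libraries), GC was exposed for 24 hours to 1e-06 M of the synthetic glucocorticoid DEX, or dexamethasone (n = 3), and GC+GW9662 was exposed as long to that DEX plus GW9662, which blocks PPARγ, the master regulator of fat cells (n = 3). The GW9662 dose, the strain, age and sex of the mice and whether the libraries within a group stem from different cultures are not given in the sources used here, so p-values measure the spread between these libraries, which may be technical.

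MMPs are zinc-dependent proteases that cut collagens, laminins, elastin and other matrix proteins, and most are made as inactive precursors. TIMPs bind active MMPs and block them. In fat and bone marrow this system remodels the matrix around adipocytes, stromal cells and bone. Promoters of several MMP genes, the stromelysins and collagenases among them, are textbook targets of the transcription factor AP-1, and glucocorticoids are known to restrain that activity.

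Levels are TPM (reads per gene length, scaled to 1 total per library), so genes can be compared with each other. The steps between TPM values gave back whole reads for 99.9% of genes above 0 (tolerance 0.02 of a read), for an estimated 17436040 to 26518106 reads per library. Pairs of libraries with the same label had a correlation across genes of at least 0.947. Fkbp5 and Tsc22d3 are genes that glucocorticoids are known to induce. Their means were lowest in the libraries labelled GC and highest in those labelled Control, which is opposite to their known response. Fkbp5 measured 463 and 429 TPM under Control, 32.5, 80.3 and 62.8 under GC, and 104, 78.8 and 104 in GC+GW9662. Tsc22d3 measured 572 and 543 TPM under Control, 50.9, 65.4 and 62.7 under GC, and 432, 401 and 455 in GC+GW9662. In GC+GW9662, which is also labelled with DEX, Fkbp5 thus overlapped GC, while Tsc22d3 lay between the other groups and nearer Control. Every direction below therefore rests on the labels as deposited. Of the adipocyte markers Adipoq, Plin1, Cidec, Fabp4, Lpl, Lep, Pparg and Cfd, Lep was listed at 0 in all libraries, and the 8 summed to 1192 to 1193 TPM under Control, 37.3 to 52.6 under GC, and 1083 to 1225 in GC+GW9662. The cultures also held macrophage transcripts: 13 markers summed to 31560 to 32486, 9940 to 10438 and 24865 to 28915 TPM in the same order.

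Mmp13 (chr9:7272514-7283331), Mmp12 (chr9:7344381-7369499), Mmp3 (chr9:7445822-7455975) and Mmp10 (chr9:7502352-7510240) lie in this order in the MMP gene cluster, all on the forward strand (GRCm38). The 250 bases before their start sites are shown because AP-1 is the best-known regulator of these genes and because 3 of the 4 were higher in GC than in both other groups. The sequences are from RefSeq on GRCm38.p6, forward strand, 5′ to 3′, and capitals mark the AP-1 motif TGANTCA, which reads the same on both strands. Mmp12 has 2 start sites in that annotation and both are given.
Mmp13, chr9:7272264-7272513: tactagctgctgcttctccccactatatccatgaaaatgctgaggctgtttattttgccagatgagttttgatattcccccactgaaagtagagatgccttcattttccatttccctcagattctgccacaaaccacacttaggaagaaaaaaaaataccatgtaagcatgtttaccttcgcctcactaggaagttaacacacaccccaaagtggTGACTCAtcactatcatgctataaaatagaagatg
Mmp12, first start, chr9:7344147-7344396: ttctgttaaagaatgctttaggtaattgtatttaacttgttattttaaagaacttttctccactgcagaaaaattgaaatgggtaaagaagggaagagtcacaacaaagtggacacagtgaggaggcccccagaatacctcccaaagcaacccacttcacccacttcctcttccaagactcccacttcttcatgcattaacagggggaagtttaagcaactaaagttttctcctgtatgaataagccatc
Mmp12, second start, chr9:7347124-7347373: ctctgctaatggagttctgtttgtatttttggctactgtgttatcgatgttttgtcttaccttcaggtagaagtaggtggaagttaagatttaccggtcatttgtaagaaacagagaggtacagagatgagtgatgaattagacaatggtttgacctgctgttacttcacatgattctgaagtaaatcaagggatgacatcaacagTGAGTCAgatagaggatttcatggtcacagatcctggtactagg
Mmp3, chr9:7445572-7445821: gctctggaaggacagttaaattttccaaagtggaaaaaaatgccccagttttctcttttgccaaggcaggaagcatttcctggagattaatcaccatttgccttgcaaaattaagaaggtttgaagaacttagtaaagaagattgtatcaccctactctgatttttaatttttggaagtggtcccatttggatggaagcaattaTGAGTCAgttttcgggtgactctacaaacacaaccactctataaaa
Mmp10, chr9:7502092-7502341: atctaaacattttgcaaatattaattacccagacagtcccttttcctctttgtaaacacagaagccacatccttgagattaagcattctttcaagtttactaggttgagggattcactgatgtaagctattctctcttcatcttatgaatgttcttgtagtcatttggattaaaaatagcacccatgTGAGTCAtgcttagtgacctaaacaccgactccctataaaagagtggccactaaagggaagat
The motif began 35 bases before the start site in Mmp13, 44 before the second start in Mmp12, 46 in Mmp3 and 63 in Mmp10. Its letters were TGACTCA in Mmp13 and TGAGTCA in the others. Windows were found for 8 of the 10 members, and those of Mmp14, Timp1, Timp2 and Timp3 and the first Mmp12 start held no TGANTCA. Of 32851 promoter windows of this length in the table, 6.75% held it. Neither a glucocorticoid response element (GNACA and TGTNC with 3 bases between, searched on both strands, in 0.387% of windows) nor a PPAR response element (AGGNCA and AGGNCA with 1 base between, both strands, in 0.338%) was matched in any member window. A match or its absence describes these letters in this window only.

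In GC against Control, the stromelysin genes Mmp3 and Mmp10 and the macrophage elastase gene Mmp12 rose, while Mmp2, Mmp13, Mmp14, Mmp19, Timp2 and Timp3 fell and Timp1 did not pass the test. That is 3 members called higher and 6 lower of 10, where 55.3% of all tested genes were called, 16.2% higher and 39.1% lower (limma on log2(TPM + 1), Benjamini-Hochberg adjusted p below 0.05). The same 9 genes had groups without overlap, as did 22.2% of all tested genes upward and 49.7% downward, 71.9% in all. Mmp10 passed the filter on low values only through the GC libraries, where it is high. Its part in these counts is therefore not independent of the filter. The median difference was -1.84 over the 10 genes and -0.38 over all tested genes. With median-ratio scaling the split over all tested genes was 4070 higher and 4029 lower in place of 2428 and 5863.

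In GC+GW9662 against GC, Mmp3, Mmp10 and Mmp12 were lower and Mmp2, Mmp19, Timp1 and Timp3 were higher, so 4 members were called higher and 3 lower, against 28.3% and 33.5% of all tested genes and 61.7% in all. The same 7 genes had groups without overlap, as did 30.3% of tested genes upward and 33.8% downward, 64.1% in all. The medians were 0.54 and -0.11. These comparisons share the GC libraries, so opposite signs in them are not independent. The filter limit of Mmp10 holds for these counts too. In GC+GW9662 against Control, Timp1 was higher, Mmp10 and Mmp12 did not pass, and the other 7 were lower, where 62.7% of tested genes were called, 14.1% higher and 48.6% lower. Groups did not overlap for 1 member upward and 8 downward, Mmp10 among them, as for 21.6% and 57.3% of tested genes, 79% in all. The medians there were -1.53 and -0.50. Log2 values understate differences of low genes.

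**Figure D1:**
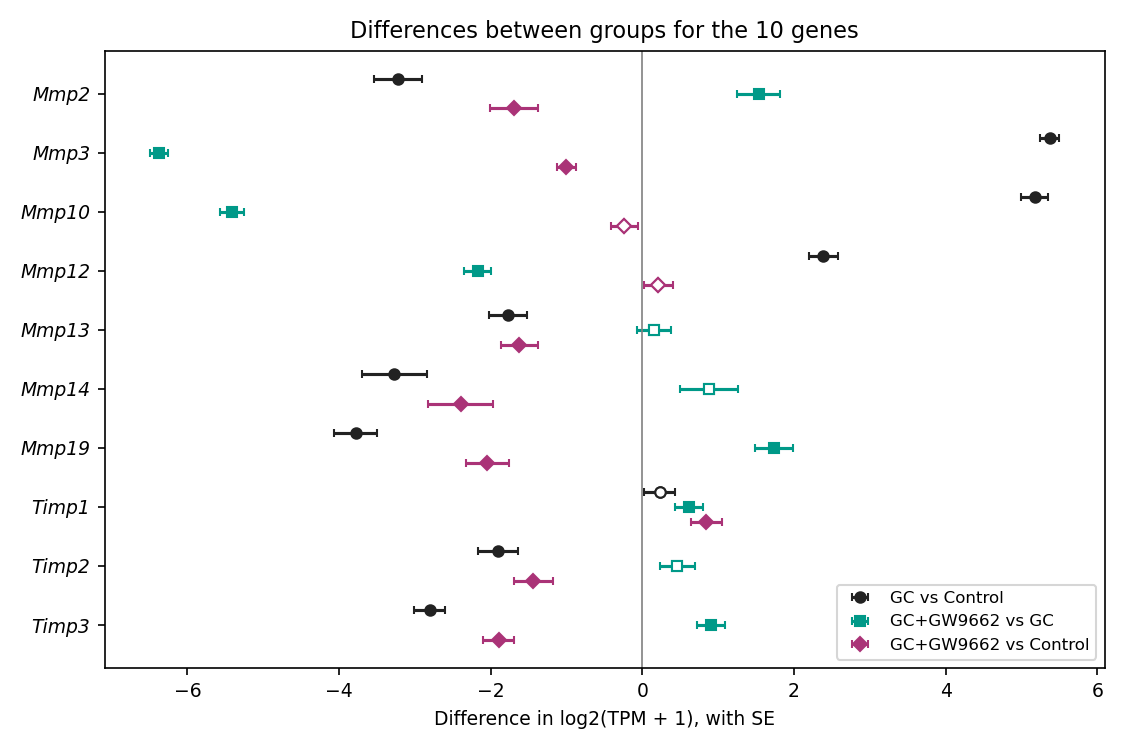
Difference in log2(TPM + 1) for each of the 10 genes in the 3 comparisons (x axis, point and SE from limma; filled symbols passed at adjusted p below 0.05, open symbols did not). Mmp3, Mmp10 and Mmp12 lie to the right in GC against Control and to the left in GC+GW9662 against GC (Mmp3 at 5.37 and -6.38), and 6 genes lie to the left in GC against Control.

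Mmp3, which encodes stromelysin-1, a protease that cuts many matrix proteins and activates other MMP precursors, had the largest log2(TPM + 1) differences of the 10 genes in GC against Control and in GC+GW9662 against GC. With a pseudocount of 0.1, Mmp10 had the larger ones (7.26 and -8.71, against 5.44 and -6.52 for Mmp3), as with voom on recovered reads (7.99 and -10.34, against 5.71 and -6.29). It measured 17.5 and 18.1 TPM under Control, 722, 820 and 793 under GC, and 9.25, 7.42 and 8.53 in GC+GW9662. The 3 groups did not overlap, and the GC libraries lay far above all others. GC exceeded Control 43.8-fold in mean TPM (log2 difference 5.37 ± 0.13 SE, adjusted p = 1.3e-07), the 11th largest rise of all tested genes. With GW9662 the mean was 92.7-fold lower than in GC (-6.38 ± 0.11, adjusted p = 4.7e-08). Only 3 of all tested genes had a more negative difference. Against Control, GC+GW9662 was also lower (-1.0 ± 0.13, adjusted p = 0.0015). Under quantile normalization this did not pass (-0.04, adjusted p = 0.81), and adjusted p ran from 3.7e-06 to 0.81 across alternatives.

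Mmp10, which encodes stromelysin-2, the closest relative of Mmp3 in the cluster, was close to 0 outside the GC libraries. It passed the filter on low values only through those libraries, so its calls against GC are not independent of the filter. It measured 0.110 and 0.255 TPM in Control, 40.1, 44.5 and 40.4 in GC, and was listed at 0 in all 3 GC+GW9662 libraries. The Control values stand for 2 and 5 reads, those of GC for 690, 929 and 864. GC against Control was a ratio of 226 in reads per depth (95% exact interval 109 to 562, for counting error only), with a log2 difference of 5.18 ± 0.18 (adjusted p = 4.9e-07). With an assumed floor of 3 reads over the GC+GW9662 group, that group would lie 773-fold below the GC mean, a value given without an interval. The fitted difference was -5.41 ± 0.16 (adjusted p = 2.4e-07). Between GC+GW9662 and Control, both near the floor, the difference did not pass (-0.24 ± 0.18, adjusted p = 0.26). It passed with a pseudocount of 0.1 (-1.45, adjusted p = 0.009) and with voom on recovered reads (-2.36, adjusted p = 0.026; range over the alternatives 0.009 to 0.69).

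Mmp12, which encodes the macrophage elastase, rose less. It measured 9.89 and 7.61 TPM under Control, 50.3, 48.7 and 49.95 under GC, and 12.8, 8.39 and 9.88 in GC+GW9662. The GC values were tight and above all others, while Control and GC+GW9662 overlapped. GC exceeded Control 5.67-fold (2.39 ± 0.20, adjusted p = 2.8e-05) and GC+GW9662 was 4.79-fold lower than GC (-2.17 ± 0.18, adjusted p = 2.6e-05). GC+GW9662 against Control did not pass (0.21 ± 0.20, adjusted p = 0.37). It passed as higher with median-ratio scaling (0.83, adjusted p = 0.0081), quantile normalization (1.17, 0.0023), removal of the length trend (1.41, 0.0038) and voom (0.75, 0.019), over a range of adjusted p from 0.0023 to 0.91. Macrophage markers moved the other way: of 13 tested, 11 fell and 1 rose in GC against Control, and 10 were higher and 1 lower in GC+GW9662 against GC. Of all tested genes, 39.1% fell and 16.2% rose in the former, and 28.3% were higher and 33.5% lower in the latter. In bulk RNA, fewer cells of a type and less RNA per cell cannot be told apart. The annotated Mmp12 shares 157 exon bases with Mmp1b on the opposite strand, which did not exceed 0.345 TPM in any library.

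Mmp13, the collagenase-3 gene of bone and cartilage, fell. It measured 73.7 and 64.4 TPM under Control, 14.4, 23.4 and 21.7 under GC, and 25.9, 16.7 and 23.5 in GC+GW9662. Both treated groups lay below Control and overlapped each other. Mmp13 fell by 1.77 in GC (log2, SE 0.25, adjusted p = 5.1e-04) and by 1.62 in GC+GW9662 against Control (SE 0.25, adjusted p = 0.0021). The 2 treated groups differed by 0.15 ± 0.22 (adjusted p = 0.57), which turned to -0.05 without GC replicate 1 (adjusted p = 0.81) and passed after quantile normalization (0.37, adjusted p = 0.045). Adjusted p lay between 0.045 and 0.95 across the alternatives. Of the 4 genes with an AP-1 motif in a promoter window (Mmp12 only at its second start), 3 were higher in GC and 1 was lower. Of all tested genes 16.2% were called higher and 39.1% lower in GC against Control. The windows were shown partly because 3 of these genes were higher in GC, so the count is a description only. Osteoblast and chondrocyte markers summed to 192 to 203 TPM under Control, 4.77 to 10.4 under GC, and 37.9 to 48.5 in GC+GW9662. All 7 tested markers were lower in GC, against 39.1% of all tested genes. The part of these markers in the Mmp13 result was not tested.

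**Figure D2:**
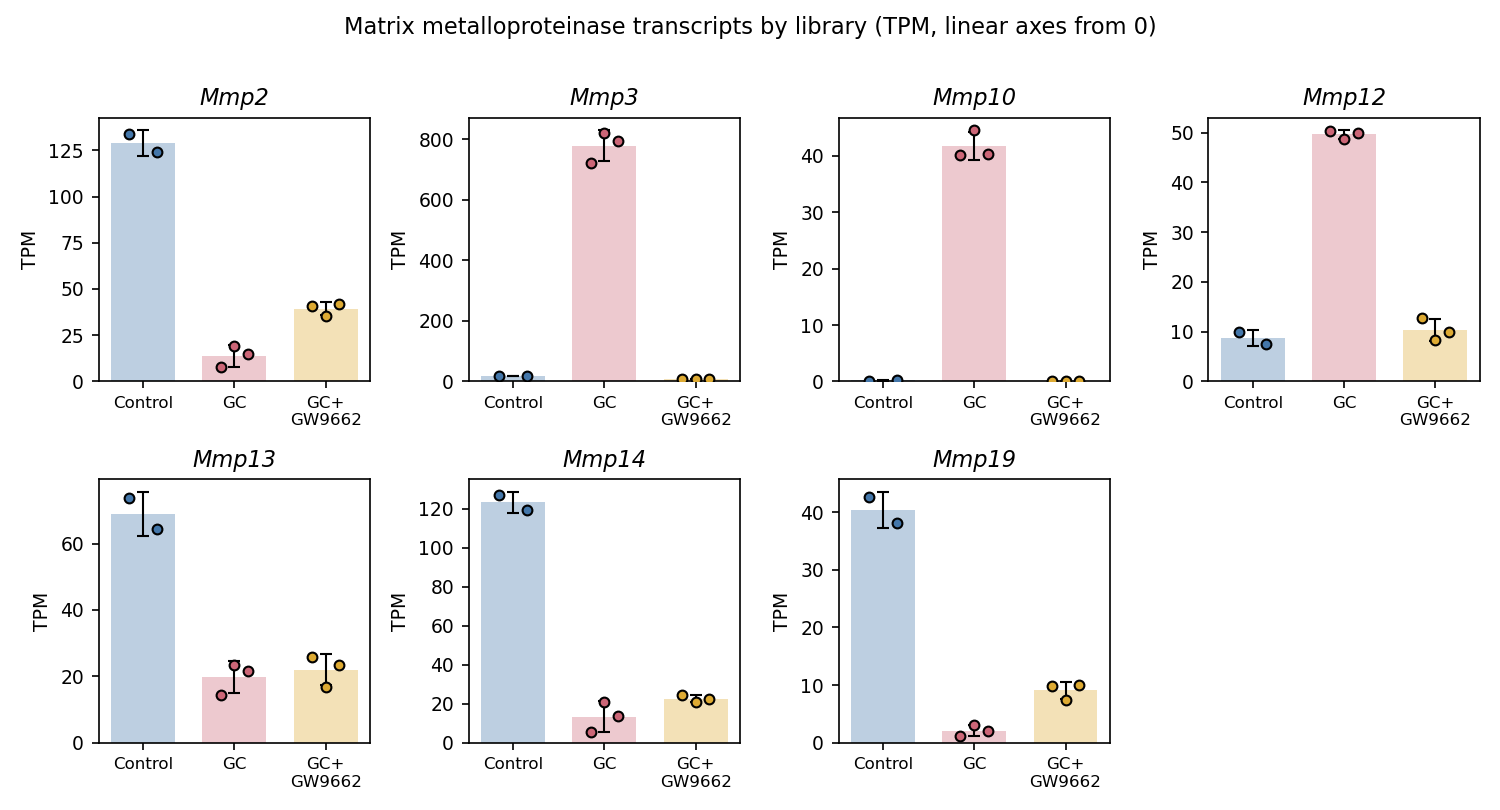
TPM of the 7 protease genes by group, 1 panel per gene with its own linear axis from 0 (points are libraries, bars group means, error bars SD, n = 2, 3 and 3). Mmp3, Mmp10 and Mmp12 are high only in the libraries labelled GC (722 to 820 TPM for Mmp3), and the other 4 genes are highest in Control.

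The genes between these members in the cluster were almost silent. Mmp1b, next to Mmp12 and Mmp3, was listed at 0 in Control and GC+GW9662 and at 0.345, 0.114 and 0.278 TPM in GC. Mmp1a, which lies between Mmp3 and Mmp10, did not exceed 0.163 TPM in any library. Both encode interstitial collagenases, and both fell short of the filter. Mmp8, the neutrophil collagenase gene on the other side of Mmp10, was tested and went the opposite way from Mmp10: 5.37 and 6.06 TPM under Control, 0.454, 0.511 and 0.465 under GC, and 2.96, 2.72 and 2.98 in GC+GW9662. It fell by 2.18 in GC against Control (SE 0.17, adjusted p = 2.2e-05). The 8 neutrophil markers summed to at most 26.7 TPM under Control, 249 to 550 under GC, and 72.4 to 83.9 in GC+GW9662, highest in GC as were Mmp3, Mmp10 and Mmp12. Of these markers 2 were tested and 1 rose in GC, against 16.2% of all tested genes. Ltf was listed at 0 in all libraries, Ly6g and Ngp in Control, Elane in GC, and S100a9 and Ly6g in GC+GW9662. The part of these markers in the results for Mmp3, Mmp10 and Mmp12 was not tested. Mmp27 reached at most 0.762 TPM and Mmp20 0.0490, and Mmp7 was listed at 0 throughout. The cluster held 2 genes with high expression in the GC libraries flanking a near-silent one, at 173 kb (Mmp3) and 230 kb (Mmp10) from the start of Mmp13.

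**Figure D3:**
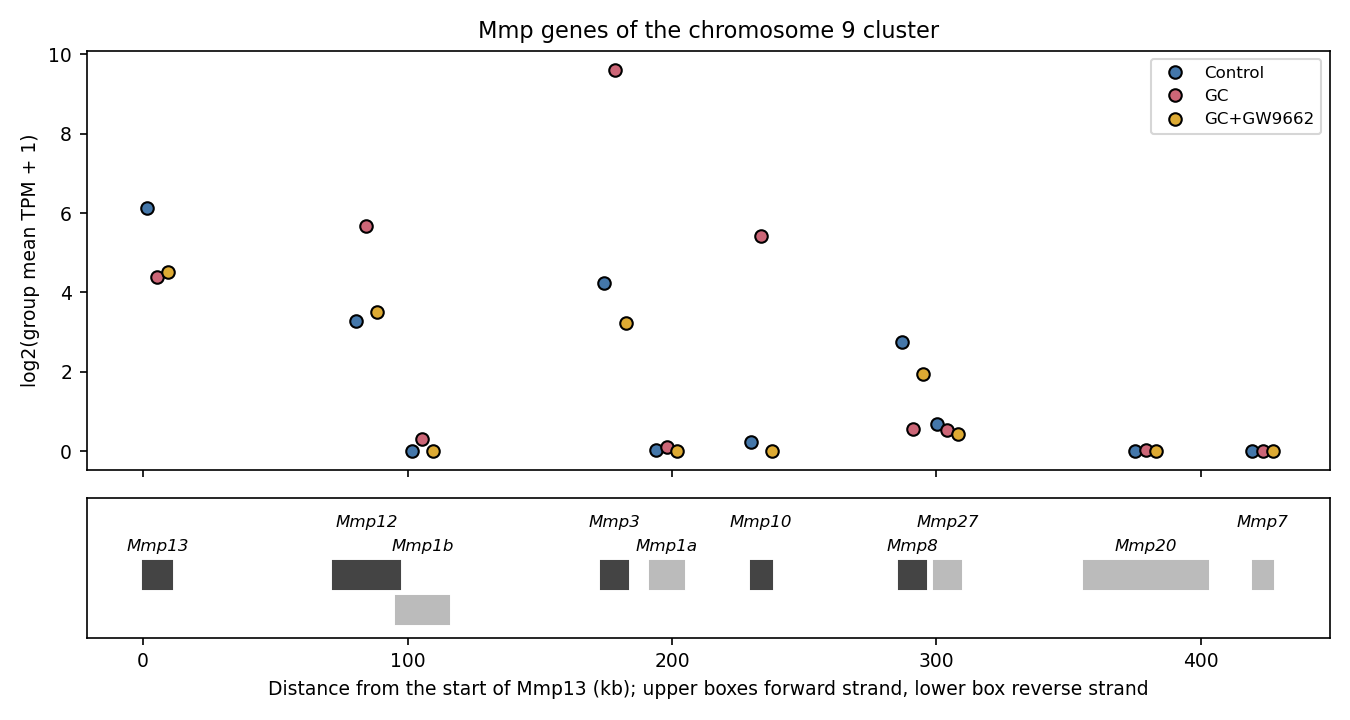
Mmp genes of the chromosome 9 cluster: log2(group mean TPM + 1) for each gene (upper panel; points are group means of 2, 3 and 3 libraries) above the gene positions (lower panel; x axis in kb from the start of Mmp13, dark boxes tested genes, light boxes genes under the filter). GC points stand above the others at Mmp12, Mmp3 and Mmp10 and below Control at Mmp13 and Mmp8.

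Mmp2, Mmp14 and Timp2 form a known activation unit: the membrane-bound protease MT1-MMP, encoded by Mmp14, activates the Mmp2 gelatinase precursor with TIMP-2 as a bridge. All 3 genes were highest in Control and lower in both treated groups. Mmp2 (chromosome 8, 92827291 to 92853420) measured 134 and 124 TPM under Control, 7.55, 19.1 and 14.6 under GC, and 40.8, 35.5 and 41.8 in GC+GW9662. No groups overlapped, and GC+GW9662 lay between the others. Mmp2 fell by 3.22 in GC against Control (SE 0.32, adjusted p = 7.2e-05), was 1.53 ± 0.28 higher in GC+GW9662 than in GC (adjusted p = 0.0021) and remained below Control there (-1.69 ± 0.32, adjusted p = 0.0033).

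Mmp14 (chromosome 14, 54431612 to 54445364) measured 127 and 119 TPM under Control, 5.50, 21.1 and 13.8 under GC, and 24.7, 20.9 and 22.3 in GC+GW9662. GC and GC+GW9662 overlapped through GC replicate 2. Mmp14 fell by 3.27 in GC (SE 0.43, adjusted p = 3.6e-04) and by 2.40 in GC+GW9662 against Control (SE 0.43, adjusted p = 0.003). GC+GW9662 against GC did not pass (0.87 ± 0.38, adjusted p = 0.078). The difference was 0.38 without GC replicate 1 (adjusted p = 0.068). It passed without GC replicate 2 (1.26, adjusted p = 0.012) and with median-ratio scaling (1.03, 0.02), quantile normalization (1.07, 0.007), removal of the length trend (1.13, 0.0079) and voom (1.16, 0.018). It also passed with library weights, and adjusted p ranged from 0.0031 to 0.17.

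Timp2 (chromosome 11, 118301069 to 118355740, reverse strand) measured 603 and 571 TPM under Control, 104, 212 and 173 under GC, and 226, 201 and 220 in GC+GW9662. Its treated groups also overlapped through GC replicate 2. Against Control the difference was -1.90 ± 0.26 in GC (adjusted p = 4.3e-04) and -1.44 ± 0.26 in GC+GW9662 (adjusted p = 0.003), and the treated groups differed by 0.46 ± 0.23 (adjusted p = 0.11). That difference was 0.17 without GC replicate 1 (adjusted p = 0.17). It passed without GC replicate 2 (0.68, adjusted p = 0.023) and with median-ratio scaling (0.61, 0.011), removal of the length trend (0.80, 5.2e-04) and voom (0.70, 0.0085). It also passed with library weights, and adjusted p ranged from 5.2e-04 to 0.27. Within each library Timp2 exceeded Mmp14 in TPM, by 4.75 and 4.79 times in Control, 18.9, 10.1 and 12.5 times in GC and 9.16, 9.63 and 9.88 times in GC+GW9662.

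Mmp19 (chromosome 10, 128790910 to 128800824) encodes a protease of basement membranes that is made by many cell types, and it had the most negative difference of the 10 genes in GC against Control, except with a pseudocount of 5, where Mmp14 had it (-2.89 against -2.68). It measured 42.6 and 38.2 TPM under Control, 1.15, 3.13 and 2.06 under GC, and 9.91, 7.34 and 9.99 in GC+GW9662. The groups did not overlap. Mmp19 fell by 3.78 in GC (SE 0.29, adjusted p = 1.9e-05), was 1.73 ± 0.25 higher in GC+GW9662 than in GC (adjusted p = 6.7e-04) and stayed below Control there (-2.05 ± 0.29, adjusted p = 0.0018). It shares 789 exon bases with Tmem198b on the opposite strand. Tmem198b measured 22.1 and 19.8 TPM under Control, 4.21 to 6.19 under GC, and 29.8 to 33.1 in GC+GW9662, and the protocol marks no strand, so reads of the shared stretch cannot be told apart.

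Timp3 (chromosome 10, 86300372 to 86349506) encodes the inhibitor that stays bound to the matrix and also blocks ADAM proteases. It measured 182 and 170 TPM under Control, 18.9, 30.3 and 25.1 under GC, and 50.9, 39.6 and 50.1 in GC+GW9662. The 3 groups did not overlap, with GC lowest. Timp3 fell by 2.80 in GC (SE 0.20, adjusted p = 1.5e-05), was 0.91 ± 0.18 higher in GC+GW9662 than in GC (adjusted p = 0.0032) and was below Control there (-1.90 ± 0.20, adjusted p = 0.001). The annotated gene shares 1733 exon bases with Syn3 on the opposite strand, which did not exceed 0.237 TPM.

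Timp1 (chromosome X, 20870166 to 20874735), which encodes a secreted inhibitor, was the most abundant member in every library and was highest with GW9662. It measured 2937 and 3161 TPM under Control, 4670.5, 2775 and 3498 under GC, and 4975, 6060 and 5417 in GC+GW9662. GC values spread on both sides of Control, and all GC+GW9662 values lay above the rest. GC against Control did not pass (0.23 ± 0.20, adjusted p = 0.38; 0.03 without GC replicate 1 and 0.41 without GC replicate 2), whereas GC+GW9662 was higher than Control (0.84 ± 0.20, adjusted p = 0.0079). The latter call was lost without Control replicate 1 (adjusted p = 0.059, range over the alternatives 5.7e-05 to 0.059). GC+GW9662 against GC passed (0.62 ± 0.18, adjusted p = 0.019), a call lost with quantile normalization (0.10, adjusted p = 0.61), removal of the length trend (0.29, 0.11) and without GC replicate 3 (0.60, 0.064), among 5 of 23 alternatives that ended it (range 1.9e-04 to 0.61).

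**Figure D4:**
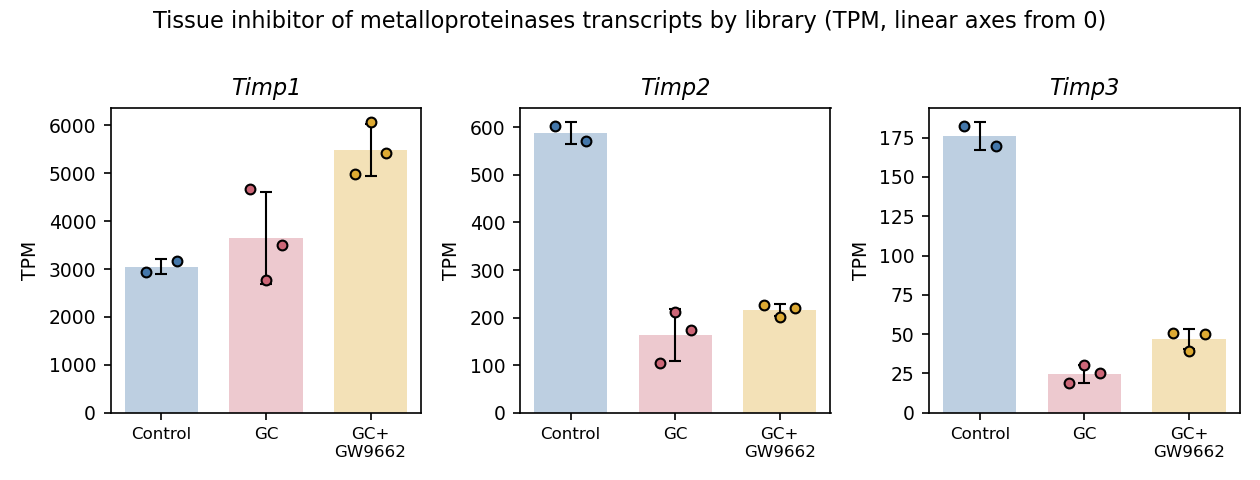
TPM of the 3 inhibitor genes by group (linear axes from 0; points are libraries, bars group means, error bars SD, n = 2, 3 and 3). Timp2 and Timp3 are highest in Control, while Timp1 is highest in GC+GW9662 (4975 to 6060 TPM).

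In GC, 8 of the 10 genes were lowest in replicate 1, and the same 8 were highest in replicate 2. Timp1 and Mmp12 were the exceptions, lowest in replicate 2 and highest in replicate 1. Without GC replicate 1 the counts in GC against Control were again 3 higher and 6 lower. The length behind the TPM was shortest in Timp1 (883 bases), Mmp10 (1722) and Mmp3 (1801), none of which fell in GC, and it was 4474 bases in Mmp12, which rose. With the length trend of each library removed, 3 members were still higher and 6 lower, with Mmp3 at 5.63 and Mmp12 at 3.14.

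The order of the genes changed with the group. In Control, means ran from Timp1 (3049 ± 158 TPM, SD) through Timp2 (587 ± 22.7), Timp3 (176 ± 8.74), Mmp2 (129 ± 6.97), Mmp14 (123 ± 5.48), Mmp13 (69.0 ± 6.60), Mmp19 (40.4 ± 3.13), Mmp3 (17.8 ± 0.472) and Mmp12 (8.75 ± 1.62) to Mmp10 (0.183 ± 0.103). There only the neighbours Mmp2 and Mmp14 overlapped. In GC, Mmp3 (778 ± 50.4) stood second behind Timp1 (3648 ± 957), then Timp2 (163 ± 54.7), then Mmp12 (49.7 ± 0.820) and Mmp10 (41.7 ± 2.47). Timp3 (24.8 ± 5.70), Mmp13 (19.8 ± 4.75) and Mmp2 (13.8 ± 5.83) each overlapped the next in order, Mmp2 with Mmp14 (13.5 ± 7.79). Mmp19 was last (2.11 ± 0.993) and did not overlap Mmp14. In GC+GW9662 the inhibitors again led, with Timp1 at 5484 ± 545, Timp2 at 216 ± 13.0 and Timp3 at 46.8 ± 6.31, followed by Mmp2 (39.4 ± 3.39). Timp3 and Mmp2 overlapped there, as did Mmp14 (22.6 ± 1.92) with Mmp13 (22.1 ± 4.76), Mmp12 (10.4 ± 2.27) with Mmp19 (9.08 ± 1.5), and Mmp19 with Mmp3 (8.4 ± 0.923).

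Summed over the family, protease transcripts were highest in GC and inhibitor transcripts in GC+GW9662. The 7 Mmp genes added up to 405 and 372 TPM under Control, 841, 979.7 and 935 under GC, and 123, 96.3 and 116 in GC+GW9662. Mmp3 alone made up 83.7% to 85.8% of that sum in GC, against 4.31% and 4.87% in Control and 7.36% to 7.70% in GC+GW9662. Without Mmp3 the sum was 387 and 354 TPM under Control, 119 to 160 under GC, and 88.9 to 114 in GC+GW9662, so its order between Control and GC was reversed. The 3 Timp genes added up to 3723 and 3902, 4793, 3017 and 3696, and 5252, 6301 and 5687 TPM. The inhibitor sum was thus 9.20 and 10.5 times the protease sum in Control, 5.70, 3.08 and 3.95 times in GC and 42.6, 65.4 and 49.0 times in GC+GW9662. These are transcript sums, given as a description with no test, and say nothing of active enzyme.

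**Figure D5:**
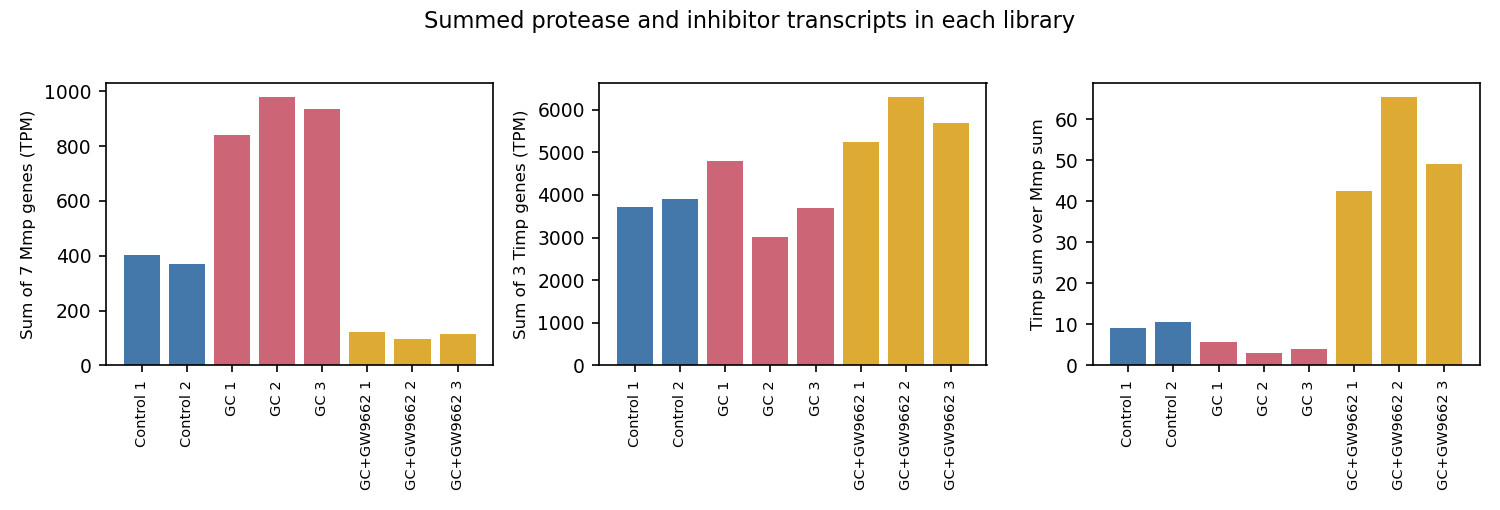
Sum of TPM over the 7 protease genes (left), over the 3 inhibitor genes (middle) and the ratio of inhibitor to protease sum (right), 1 bar per library, axes from 0. The ratio is 3.08 to 5.70 in GC and 42.6 to 65.4 in GC+GW9662.

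The tested genes among the other MMPs mostly fell in GC. Of 17 further MMP and TIMP genes, 8 were tested, and 7 of these fell and 1 rose in GC against Control. The shares of all tested genes there were 39.1% lower and 16.2% higher. Mmp11 (stromelysin-3) measured 38.4 TPM under Control, 3.22 under GC, and 23.1 in GC+GW9662 in group means and fell by 3.23 in GC (SE 0.20, adjusted p = 7.1e-06). Mmp28 fell by 2.71 and Mmp17, a membrane-type protease gene, by 2.24. The gene that rose was Mmp24, another membrane type, at 0.548 and 0.306 TPM in Control and 1.05 to 2.32 in GC (0.85 ± 0.23, adjusted p = 0.014). Mmp24 passed the filter on low values only through the GC libraries, and its call was lost without either Control library. With GW9662 all 8 differed from GC, 7 higher and Mmp24 lower, against 28.3% and 33.5% of all tested genes. Mmp23 (168 to 177 TPM) even exceeded Control (94.0 and 105 TPM, 0.78 ± 0.16, adjusted p = 0.0041). The untested genes were Mmp1a, Mmp1b, Mmp7, Mmp16, Mmp20, Mmp21, Mmp25, Mmp27 and Timp4.

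The plasminogen cascade and the proprotein convertases, which activate MMP precursors, went both ways. Of 13 genes, 10 were tested. In GC against Control, 3 rose (Plaur, Plat and Serpinb2) and 6 fell, against 16.2% and 39.1% of all tested genes. Without Control replicate 1, and likewise without Control replicate 2, 2 rose and 3 fell of 9 tested, and removal of the length trend left 4 that fell. Pcsk5 passed the filter only through Control. In the comparison of GC+GW9662 with GC, Plaur, Plat and Serpinb2 were lower and none was higher, against 33.5% and 28.3% of all tested genes. Over the alternatives 0 to 4 were higher and 3 to 6 lower. Removal of the length trend gave 4 higher and 4 lower, and 6 were lower without GC replicate 1. Plaur, the urokinase receptor gene, measured 36.1 and 36.8 TPM under Control, 93.2, 80.8 and 85.3 under GC, and 26.1, 24.3 and 24.8 in GC+GW9662 (1.22 ± 0.12 in GC against Control, adjusted p = 6.1e-05). Serpine2, a gene for a serine protease inhibitor, fell by 1.27, and Pcsk6, a convertase gene, by 3.38. Compared with Control, GC+GW9662 had 9 of the 10 lower and none higher, against 48.6% and 14.1% of all tested genes. Removal of the length trend left 6 lower.

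Among surface partners and regulators of MMPs, 7 of 9 tested genes fell and 1 rose in GC against Control. Across all tested genes, 39.1% were called lower and 16.2% higher there. Lrp1, the receptor that clears MMPs and TIMPs from the cell surface, stood at 299 and 294 TPM in Control and 4.89, 21.2 and 15.1 in GC (-4.54 ± 0.48, adjusted p = 1.0e-04). Cav1, the caveolin gene, fell by 3.41, and Pcolce, which enhances procollagen processing, fell by 2.04. The riser was Itgb3, the integrin β3 gene, from 2.64 and 3.09 TPM to 13.2, 25.2 and 21.6 (2.40 ± 0.27, adjusted p = 1.5e-04). A list of related proteases held ADAM and ADAMTS genes and the tolloid-type genes Bmp1 and Tll1. It fell in 17 of 18 tested cases with no rise in GC, and in 17 of 18 in GC+GW9662 against Control. The shares of all tested genes called lower were 39.1% and 48.6% in those comparisons. Of the 18, Adamts4, Adamts9, Adamts15 and Tll1 passed the filter only through Control, where they are high. Without either Control library 14 were tested and 11 fell in GC. With the length trend removed 11 of 18 fell in GC, and in GC+GW9662 against Control 9 were lower and 1 was higher. Adamts12 fell by 3.25 in GC, Adamts5, an aggrecanase gene, by 2.78, Adam19 by 2.58 and Adamts15, from 2.1 and 1.88 TPM in Control to at most 0.0676 in GC, by 1.52.

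Matrix genes whose products MMPs cut were also lower. Of 17 tested, 16 fell and none rose in GC against Control, against 39.1% and 16.2% of all tested genes. The number that fell was 13 with no filter, median-ratio scaling, removal of the length trend or the compared groups alone. With library weights it was 17. The list median was -3.0, against -0.38 for all tested genes. Eln passed the filter only through Control. Col3a1 went from 224 and 214 TPM to 3.83, 6.16 and 4.19 (-5.28 ± 0.19, adjusted p = 5.8e-07), and Col5a1 fell by 5.15. Col1a1 differed by -4.43 and Col1a2 by -3.75. With GW9662 6 of the 17 were higher and 2 lower than in GC, against 28.3% and 33.5% of all tested genes. The split of the 17 ranged from 5 to 11 higher and 0 to 7 lower over the alternatives. Stromal and fibroblast markers share Col1a1, Col1a2, Col3a1 and Dcn with this list. They summed to 1370 to 1436 TPM under Control, 78.1 to 133 under GC, and 373 to 411 in GC+GW9662. This sum was highest in Control and lowest in GC, as were the means of Mmp2, Mmp13, Mmp14, Mmp19, Timp2 and Timp3. The order is not particular to stromal markers: the macrophage, osteoblast and chondrocyte, and osteoclast sums had it too. In GC 8 of 10 stromal and fibroblast markers fell and none rose, against 39.1% and 16.2% of all tested genes. The part of any of these cell types in the results for those members was not tested.

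AP-1 subunit genes went both ways in GC, with more rises. Of 8 tested, 6 rose and 1 fell in GC against Control, against 16.2% and 39.1% of all tested genes. The genes that rose were Fos, Fosb, Fosl1, Jun, Junb and Jund, and Fosl2 fell. The number that rose was 4 without Control replicate 1, Control replicate 2 or GC replicate 3, with either replicate block and with the compared groups alone. In the comparison of GC+GW9662 with GC, Fos, Fosb, Fosl1, Jun, Junb and Jund were lower, and Fosl2 and Batf were higher. The shares of all tested genes were 33.5% lower and 28.3% higher. The number of AP-1 genes that were lower was 6 in every alternative, and the number higher ranged from 1 to 2. Fosb measured 2.42 and 2.02 TPM under Control, 22.9, 36.0 and 28.4 under GC, and 5.07, 6.00 and 4.85 in GC+GW9662 (3.2 ± 0.22 in GC against Control, adjusted p = 1.2e-05). Junb rose by 1.86 and Jund by 1.66, and Fosl2 fell by 1.61. In GC+GW9662 against Control, Junb (-0.38) changed its direction with median-ratio scaling and Fosl2 (-0.88) with removal of the length trend.

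Over the 8 libraries, the genes whose log2(TPM + 1) was most like that of Mmp3 were the metallothionein gene Mt2, the heme oxygenase gene Hmox1, Litaf, Gss and Vapa (Pearson r 0.9990 to 0.9996). Mt2, for example, had a mean of 2738 TPM under Control, 8418 under GC and 2141 under GC+GW9662. Those most like Mmp2 were Atp6v0a1, Itgb5, Sh3bp5, Palld and Zbtb4 (0.9975 to 0.9993). With libraries in 3 separate groups, r reflects the group levels, and it is given as a description.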

How the data were processed

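RNA of 8 libraries, made with the Smart-Seq2 protocol, was measured in 3 groups assigned by the sample titles (Control, n = 2, GC, n = 3, GC+GW9662, n = 3). The values are TPM per gene as deposited by the authors. The submitters' processing notes name fastp, HISAT2 2.1.0 and featureCounts, and the order of steps, build and annotation are not given in the sources used here. Starts and ends equalled those of GENCODE M21 (GRCm38) for 97.4% of genes. Each of 54134 genes was used once.

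The 10 genes, the lists and the tests were chosen with earlier results of these data known. The 14985 genes that reached 1 TPM in 2 or more libraries entered 1 limma model (version 3.58.1, R 4.3.3) of log2(TPM + 1) with a mean for each group of the 8 libraries and a trended prior. Tests were 2-sided, with Benjamini-Hochberg adjustment over all tested genes and a threshold of 0.05. Named were the 10 genes, up to 4 called genes per list with the smallest adjusted p in GC against Control, listed neighbours of a member, the 5 genes most like Mmp3 and Mmp2, Fkbp5 and Tsc22d3. Mmp23, Mmp24, Mmp7, Mmp20, Mmp27, the list counts of 5 or fewer and the overlapping genes were named after their values were seen. A gene that the rule takes is not reported here. Reads were recovered at the GENCODE length (11660 genes) or the smallest length giving whole reads (15138), so depths may be too low, and amplified reads are not independent molecules.

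Same-numbered GC and GC+GW9662 libraries did not deviate together (r from -0.117 to 0.079).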

Additional observations from a re-analysis of the deposited data

How the results depend on the processing

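Each of 30 differences (10 genes, 3 comparisons) was recomputed under 23 alternatives: other pseudocounts (0.1 and 5), other filters (none, or 5 TPM), other scalings (median ratio, quantile, TPM rescaled after dropping mitochondrial genes and the 20 most abundant, length trend removed), other priors (constant, robust), library weights, a fit of only the compared groups, blocks by title or bracket number, each library omitted and, chosen after seeing the data, voom on recovered reads. Of these 690 values, 663 kept direction and side of the threshold, 19 newly passed, 7 no longer passed and 1 changed sign (Mmp13 in GC+GW9662 against GC, -0.051 without GC replicate 1, and up to 0.33 over single omissions). The cause was not tested. The counts of members in GC against Control, 3 higher and 6 lower, were the same in every alternative except library weights, which added Timp1 (0.18, adjusted p = 0.046). In GC+GW9662 against GC, members called higher ranged from 3 to 6 in place of 4, and members called lower stayed at 3. The count of 6 came with median-ratio scaling, library weights, voom and without GC replicate 2. In GC+GW9662 against Control, members called higher went from 1 to 2 with median-ratio scaling, quantile normalization, removal of the length trend and voom, and ranged from 0 to 1 over single omissions, with 0 without Control replicate 1. All genes called ranged over single omissions from 5513 to 9233 in GC against Control, from 7278 to 10759 in GC+GW9662 against GC and from 5598 to 10329 in GC+GW9662 against Control. Scaling moved the median of all genes in GC against Control from -0.38 to 0.04 (median ratio) or 0.08 (quantile) and the split from 2428 higher and 5863 lower to 4070 and 4029 or 4187 and 3915; in GC+GW9662 against Control it went from -0.50 to 0.01 (median ratio), with 4387 higher and 4744 lower in place of 2114 and 7284. Removal of the length trend gave 4315 and 4066 in the first and 3437 and 3306 in the second, and voom gave 3658 and 5414 in the second. Libraries sharing a number showed no pairing, and the replicate block by title number gave 7145, 8351 and 8368 called genes in the 3 comparisons, against 8291, 9253 and 9398 without it. It changed no call of the 10 genes. Omission of 1 Control library leaves 1, which is then assumed to vary like the other groups. Depth limits Mmp10, where 1 read is worth 0.0468 to 0.0581 TPM.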
